A study of Mus musculus with 20 samples.

Results

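The left atrium of newborn mice that breathed 100% oxygen was compared with the left atrium of pups in room air (21% oxygen). The comparison used 10 of the 20 libraries of the series, chosen by the chamber and the gas named in their titles: 5 hyperoxic and 5 room-air left atria. The other 10 are left ventricles of pups under the same gases and were used only to set the atrial response beside the ventricular one. All pups were C57BL/6J, a common inbred strain, with no transgene or deleted allele in the labels. Exposure ran from birth to postnatal day 4, and nursing dams were exchanged between the gases. Each library came from the whole left atrium of 1 pup, a mixture of myocytes, fibroblasts, endothelial, epicardial and blood cells. Litters were not given, so the p-values measure the spread between these pups.

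The left atrium receives the oxygenated blood that returns from the lungs, and its wall is continuous with the myocyte sleeves of the pulmonary veins. Atrial myocytes store and release atrial natriuretic peptide when the wall is stretched, and they carry their own set of transcription factors, ion channels and connexins. Among the defences of a stressed cell are the integrated stress response, in which the transcription factor ATF4 is made and switches on amino acid supply genes, the p53 response to damaged DNA, the heat shock response to misfolded proteins and the NRF2 response to oxidants. Much of the deposited elastin and collagen of the wall is laid down in the weeks around birth.

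Total counts were 31467645 to 38244117 per atrial library. Of 55367 genes listed, 16079 passed the filter on low counts in the 10 atrial libraries and were tested. Levels are in CPM, counts scaled to a common library size. They are printed for each of the 5 pups of a group in the order of the replicate numbers, or as mean ± SD (n = 5 a group). Log2 differences are hyperoxia minus room air with their standard error (SE), and adjusted p-values come from edgeR's quasi-likelihood test with Benjamini-Hochberg correction over all tested genes. A gene passed, and is said to have risen or fallen, where this value was under 0.05. The atrial light chain gene Myl7 was at 4701 to 12790 CPM in all 10 libraries. Myl2, the ventricular light chain gene, was at 6.12 to 23.9 CPM in 9 of them and at 344.7 CPM in room-air atrium 1. Further library features moved with the groups. All 5 room-air atria had more reads from Y-linked genes than from Xist, the RNA of the inactive X chromosome, against only number 2 of the hyperoxic atria. Hyperoxic atria 1 and 3 still held Y-linked reads, at 5.48 and 3.84 CPM, against 0.04 and 0.19 CPM in atria 4 and 5. Xist was at 8.45 CPM in hyperoxic atrium 2, against at most 0.12 CPM in room air. The source of these reads was not tested. Hyperoxic atria 2 and 4 gave relatively more reads to short transcripts, with length slopes (of relative log2 CPM on log2 transcript length) of -0.30 and -0.29, against 0.01 to 0.14 in the other 8 libraries. Sex and gas therefore cannot be fully told apart. Results were also computed without hyperoxic atria 2 and 4 and with a Y-linked covariate, the log2 ratio of Y-linked to Xist reads. This ratio was 10.49 to 12.05 in room air, 4.4 in hyperoxic atrium 2 and -12.97 to -7.24 in the other hyperoxic atria. Without atria 2 and 4 no hyperoxic atrium has more Y-linked than Xist reads, so that fit cannot part sex from gas. The covariate is set apart from gas mainly by hyperoxic atrium 2, itself a library tilted towards short transcripts. A gene that missed the threshold with the covariate could keep or exceed its log2 difference, as Atp2a2 did (-0.69, and -0.79 with it). Others did not, such as Sparc (-0.31, and -0.13 with it).

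In the hyperoxic atrium 7123 of 16079 genes passed (44.3%), of which 3719 were higher (23.1%) and 3404 lower (21.2%). At least 2-fold differences were passed by 899 higher (5.59%) and 916 lower genes (5.7%). For 2686 higher (16.7%) and 2711 lower genes (16.9%) the 5 hyperoxic values did not overlap the 5 room-air values, together 33.6% of all tested genes. Genes named below for the size of their log2 or CPM difference were chosen among genes without overlap. Their lack of overlap is a condition of that choice. The median log2 difference over all tested genes was 0.002. List counts below are to be read beside 23.1% higher and 21.2% lower. With the Y-linked covariate 2624 of the 16079 genes passed, 1529 higher and 1095 lower. List counts given with that covariate are to be read beside these. In all 23 alternative fits 1654 genes passed in the same direction. The count of passing genes was 7996 without hyperoxic atria 2 and 4, and 6281 without room-air atrium 1. Leaving out any other room-air atrium gave 5927 to 6541. On the X chromosome 41% of 525 tested genes passed, against 44.6% of 15260 autosomal genes.

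**Figure D1:**
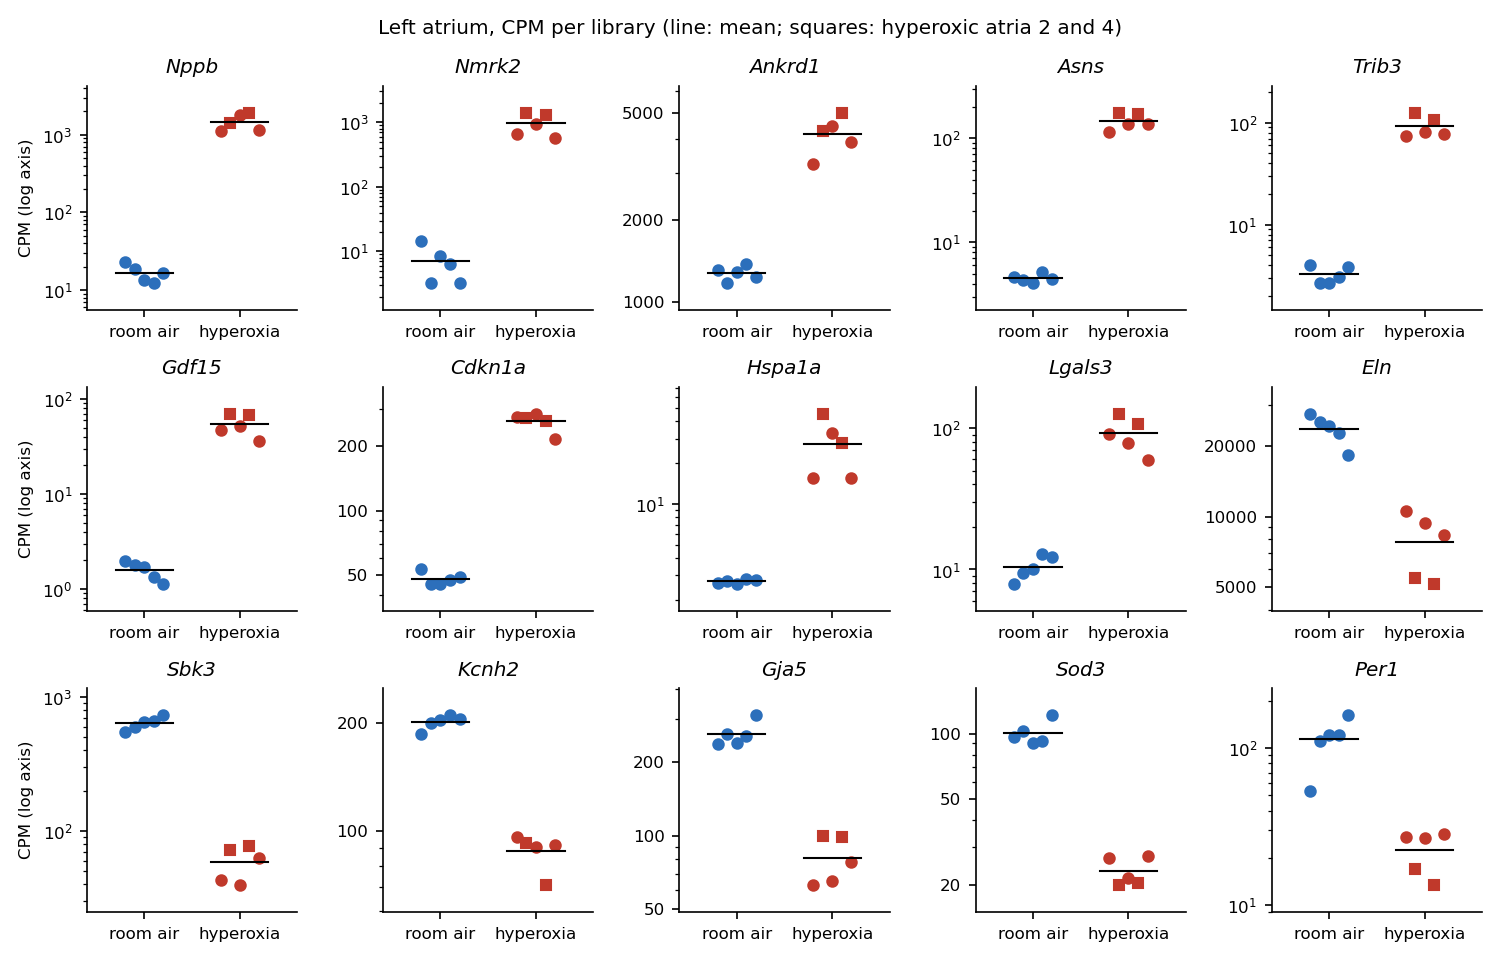
CPM of 15 genes in each of the 10 left atria on log axes, hyperoxia against room air; lines are group means, and squares are hyperoxic atria 2 and 4, the libraries tilted towards short transcripts. In none of the 15 genes do the groups overlap, from Nppb (mean 16.9 CPM in room air and 1468 in hyperoxia) to Sbk3 (634 and 58.8 CPM). Those named for size had to be without overlap.

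Genes of the integrated stress response rose. Of 20 tested ATF4 transcription factor and target genes 17 rose, 15 of them at least 2-fold, and none fell, against 23.1% higher and 5.59% at least 2-fold higher among all tested genes. The median log2 difference of the list was 1.82. Every hyperoxic library lay above the room-air libraries in the median of the list relative to the room-air mean, at 1.38, 2.35, 1.58, 2.13 and 1.28 in hyperoxia against 0.07, -0.01, -0.02, -0.01 and -0.05 in room air. The count was also 17 with the Y-linked covariate and without hyperoxic atria 2 and 4.

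Several of these genes carry in their promoters the letters of the C/EBP-ATF response element, a site that ATF4 and its partners can bind. The letters searched were TGATGNAA on both strands, in windows from 250 bases before to 50 bases after each RefSeq start site. The element was present in 8 of the 18 list genes that had a window (44.4%), against 325 of 11831 tested genes (2.75%) and 1219 of 27025 genes in all (4.51%). The 8 were Asns, Chac1, Fgf21, Slc7a11, Trib3, Atf3, Vldlr and Nupr1, of which 7 rose and Nupr1 did not pass (log2 0.53, adjusted p = 0.054). Vldlr, a lipoprotein receptor gene, did not pass with the Y-linked covariate. The promoters of 4 of them, and of the glycyl-tRNA synthetase gene Gars, are shown as examples that hold the element, in capitals, upstream of their start. Atf3, Vldlr, Nupr1, Aars and Tars hold it upstream too and are not shown. They are RefSeq sequences of GRCm38.p6, 5′ to 3′ on the strand of the gene, and each ends at the base before the start site.
Asns, chr6:7693210-7693369 (minus strand), element 23 bases before the start: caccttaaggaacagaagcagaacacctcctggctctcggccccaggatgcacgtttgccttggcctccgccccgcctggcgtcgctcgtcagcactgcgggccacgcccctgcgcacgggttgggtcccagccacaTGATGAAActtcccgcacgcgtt
Chac1, chr2:119350992-119351241 (plus strand), element 193 bases before the start: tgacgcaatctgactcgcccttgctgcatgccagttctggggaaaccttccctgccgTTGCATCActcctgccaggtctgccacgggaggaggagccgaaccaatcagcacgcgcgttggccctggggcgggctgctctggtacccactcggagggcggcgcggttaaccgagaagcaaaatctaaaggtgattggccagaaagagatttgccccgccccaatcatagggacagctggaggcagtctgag
Fgf21, chr7:45615491-45615650 (minus strand), element 139 bases before the start: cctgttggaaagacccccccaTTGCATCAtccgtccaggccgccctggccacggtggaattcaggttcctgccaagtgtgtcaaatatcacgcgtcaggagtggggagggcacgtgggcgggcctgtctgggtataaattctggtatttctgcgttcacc
Slc7a11, chr3:50443614-50443773 (minus strand), elements 66 and 47 bases before the start: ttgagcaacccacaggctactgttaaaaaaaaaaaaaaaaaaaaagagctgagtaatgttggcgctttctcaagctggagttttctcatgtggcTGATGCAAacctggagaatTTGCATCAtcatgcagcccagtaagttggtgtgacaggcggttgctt
Gars, chr6:55037841-55038000 (plus strand), element 30 bases before the start: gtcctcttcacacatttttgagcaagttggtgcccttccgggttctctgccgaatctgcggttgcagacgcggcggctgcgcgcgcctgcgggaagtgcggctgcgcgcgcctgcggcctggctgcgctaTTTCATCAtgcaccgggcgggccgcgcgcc
A match is a description of the letters, and binding was not measured here. Shares in a list of known targets, here and below, rest on sequence alone and do not test what the factor did in these atria. Among the 641 genes with a window that rose at least 2-fold 30 held the element (4.68%), and among the 614 that fell at least 2-fold 23 did (3.75%).

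Asns encodes asparagine synthetase. Its level was 115, 174, 138, 169.6 and 137 CPM in hyperoxia and 4.68, 4.39, 4.05, 5.14 and 4.43 CPM in room air (log2 5.01, SE 0.14, adjusted p = 5.6e-10). No hyperoxic value came near the room-air range. Chac1 encodes an enzyme that breaks down glutathione. It was at 15.5, 26.8, 17.9, 19.1 and 17.2 CPM against 0.506, 0.424, 0.496, 0.356 and 0.698 CPM (log2 5.28, SE 0.21, adjusted p = 9.4e-09). Trib3, a pseudokinase that restrains ATF4, was at 74.8, 124, 80.6, 106 and 77 CPM against 3.99, 2.67, 2.7, 3.09 and 3.85 CPM (log2 4.83, SE 0.19, adjusted p = 9.4e-09). In all 3 genes atrium 2 was the highest library and the groups were far apart.

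Among the secreted products of this response, Gdf15, a stress cytokine that acts on the brain stem, was at 47.3, 69.4, 51.8, 67.5 and 36.4 CPM in hyperoxia and 2, 1.77, 1.71, 1.34 and 1.12 CPM in room air (log2 5.09, SE 0.22, adjusted p = 2e-08). Fgf21, a metabolic hormone, was low in both groups, at 3.7, 9.21, 4.15, 6.29 and 4.12 CPM against 0.179, 0.125, 0.193, 0.164 and 0.0607 CPM (log2 5.21, SE 0.36, adjusted p = 7.4e-07). For both hormones each hyperoxic pup lay above each room-air pup. Of the transcription factors, Atf4 itself rose from 159.7 ± 17 to 524 ± 138 CPM, Atf5 from 53.1 ± 1.93 to 156 ± 37.8 CPM and Ddit3, which encodes CHOP, from 20.3 ± 2.8 to 123 ± 59.4 CPM. Ddit3 was highest in hyperoxic atria 2 and 4, at 216 and 150 CPM against 77.4 to 87.2 CPM in the other 3. Sesn2, a sestrin that restrains mTORC1, rose from 7.21 ± 0.688 to 43 ± 4.76 CPM with no such split. Ddit4 (log2 0.08, adjusted p = 0.59) and Stc2 (log2 -0.10, adjusted p = 0.29) of the same list did not pass.

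Genes of amino acid supply were also higher. Of 18 tested genes of serine, one-carbon and proline synthesis 13 rose and 1 fell (median log2 0.62), with 8 and 0 under the Y-linked covariate. Mthfd2, the mitochondrial folate enzyme, was at 112, 153, 139, 135 and 123 CPM in hyperoxia and 19, 13.6, 15.5, 16.6 and 13.7 CPM in room air (log2 3.08, SE 0.12, adjusted p = 9.4e-09). The groups did not overlap, and the spread within each was small beside the gap. Phgdh, the first enzyme of serine synthesis, rose from 18.3 ± 1.47 to 60.8 ± 7.91 CPM, Psat1, the next, from 37.5 ± 2.46 to 86.4 ± 6.33 CPM and the serine-glycine enzyme Shmt2 from 51.8 ± 3.18 to 113 ± 10.2 CPM. The third enzyme of the serine pathway, Psph, did not pass (log2 0.16, adjusted p = 0.34).

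Of 20 amino acid transporter genes 8 rose and 1 fell (5 and 0 with the Y-linked covariate, 13 and 1 with the length slope as a covariate). Slc7a3, a cationic amino acid carrier, was at 13.2, 13.3, 12.9, 13.5 and 12.2 CPM in hyperoxia and 1.34, 0.772, 1.05, 1.5 and 0.941 CPM in room air (log2 3.54, SE 0.17, adjusted p = 4.4e-08). Its hyperoxic values varied little, between 12.2 and 13.5 CPM, and none came near the room-air range. The leucine carrier gene Slc7a5 rose from 27.5 ± 1.16 to 82.8 ± 10.1 CPM and Slc3a2, its partner chain, from 68.7 ± 2.77 to 171 ± 27.4 CPM. Slc7a11, the cystine carrier of the printed promoter with 2 elements, rose from 0.305 ± 0.15 to 2.21 ± 0.449 CPM.

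The enzymes that load tRNAs with their amino acids rose almost throughout. Of 20 cytosolic aminoacyl-tRNA synthetase genes 19 rose and none fell, with a median log2 difference of 0.99. With the Y-linked covariate 14 rose, and 15 did with both this covariate and the length slope. Eprs, for glutamate and proline, rose from 132 ± 4.17 to 345 ± 26.8 CPM (log2 1.39, SE 0.08, adjusted p = 3.3e-07). Sars, for serine, rose from 93 ± 3.47 to 321 ± 52.9 CPM and Gars, for glycine, from 122 ± 9.63 to 409.5 ± 80.1 CPM. The 1 that did not pass was Qars, for glutamine, at 73.1, 70.5, 74.7, 79.4 and 74.4 CPM in hyperoxia and 76.5, 79.7, 75.2, 84.5 and 77.9 CPM in room air (log2 -0.08, adjusted p = 0.36), where the groups overlapped. The element was in the windows of 5 of 13 cytosolic synthetase genes (38.5%; Aars, Gars, Iars, Tars and Yars, all of which rose). It was in none of 14 windows of mitochondrial synthetase genes, of which 10 of 17 tested rose (median log2 0.28) and 2 did with the Y-linked covariate. Among amino acid transporter genes the element was in 3 of 13 windows (23.1%), and only Slc7a11 of these rose. In serine, one-carbon and proline synthesis it was in 1 of 14 windows (7.14%), although 13 of 18 tested genes rose.

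Genes of the folding machinery of the endoplasmic reticulum, which respond to misfolded protein in its lumen, passed in few cases. Of 22 tested chaperone and unfolded protein response genes 1 rose and 3 fell, with a median log2 difference of 0.02. The main chaperone gene Hspa5 was at 761, 842, 804, 888 and 722 CPM in hyperoxia and 823, 707, 694, 788 and 648 CPM in room air (log2 0.14, SE 0.10, adjusted p = 0.32). Xbp1, the transcription factor of the IRE1 arm, was at 125, 126, 131, 129 and 115 CPM against 129.8, 118, 124, 127 and 111 CPM (log2 0.04, SE 0.07, adjusted p = 0.71). Both genes overlapped between the groups. The gene that rose was Atf6, of the third arm (log2 0.47, adjusted p = 0.00097), and the calcium-binding chaperone Calr, with the degradation genes Sel1l and Syvn1, fell. None of these 4 passed with the Y-linked covariate.

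**Figure D2:**
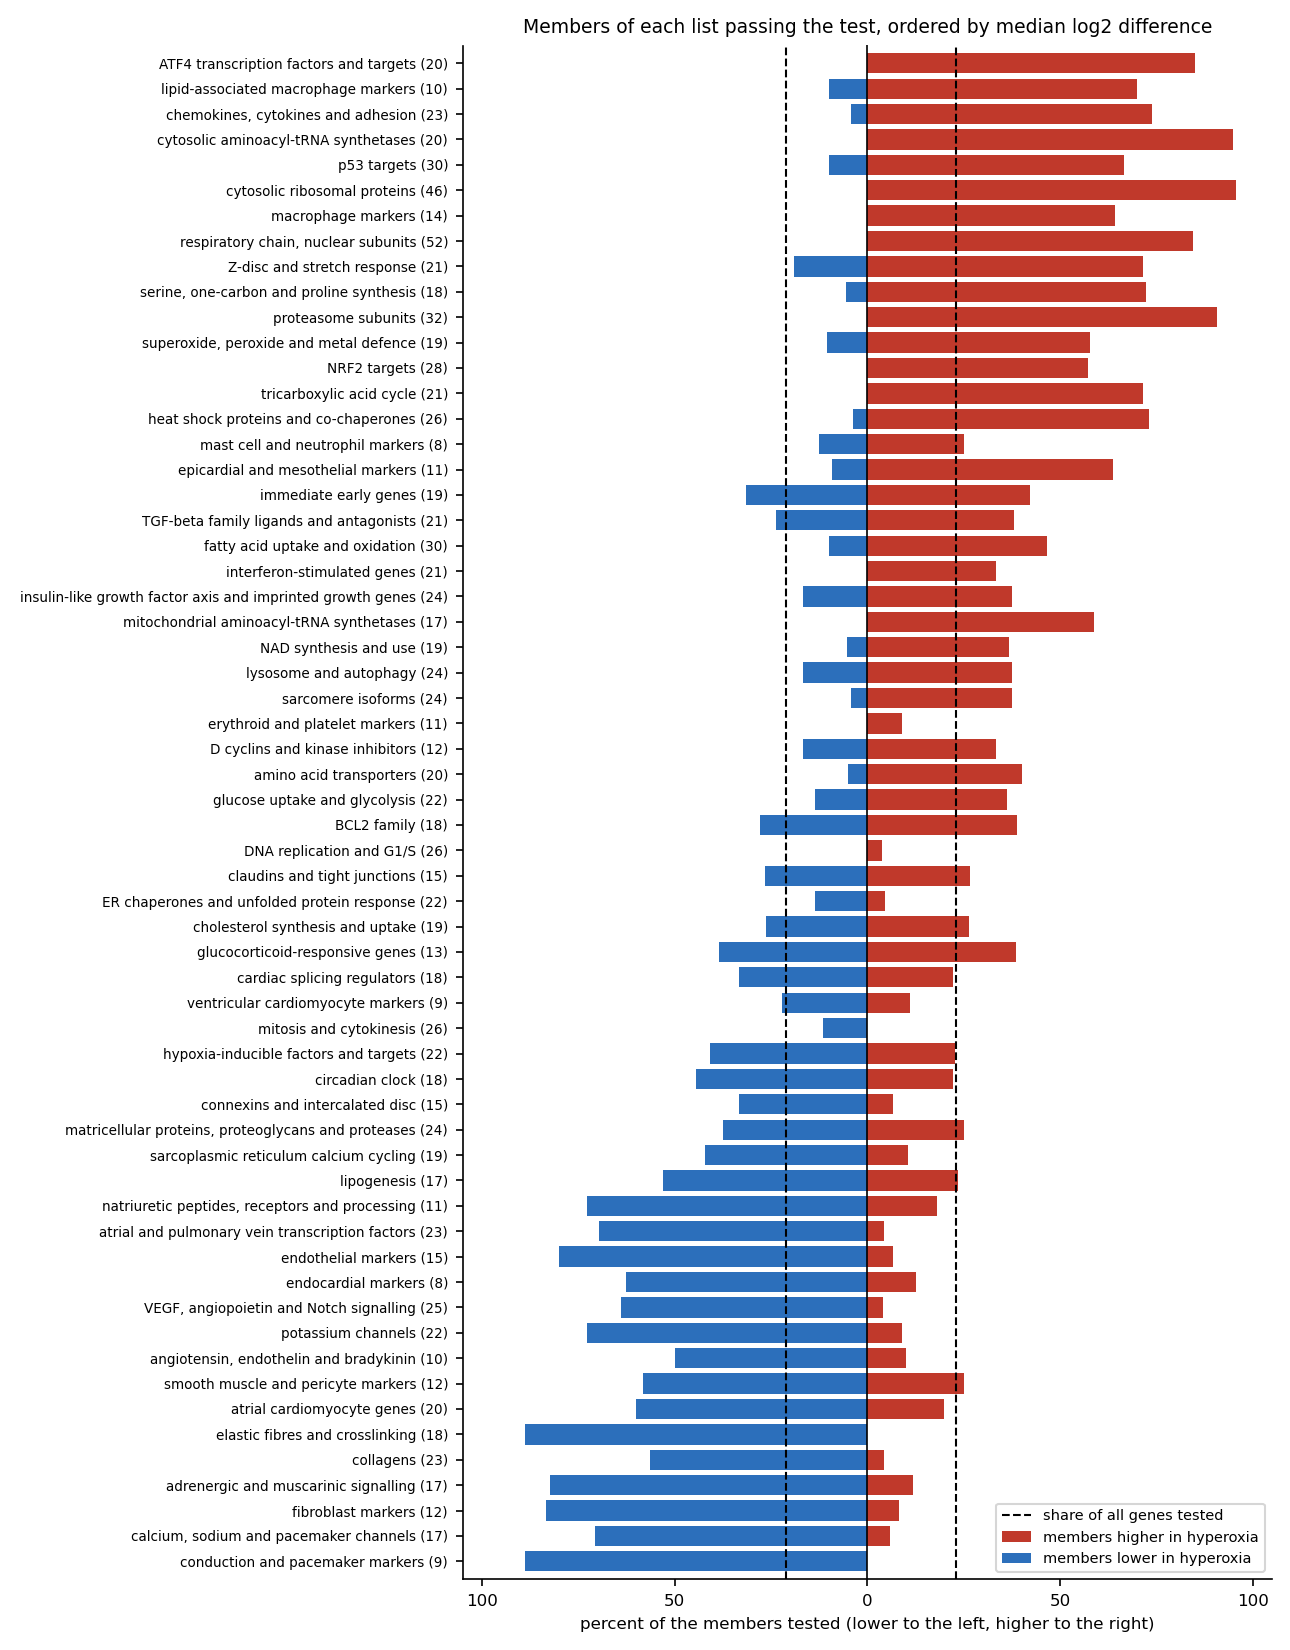
Percent of tested members that were higher (right) or lower (left) in hyperoxic left atria for each gene list with at least 8 tested members, ordered by median log2 difference; dashed lines mark the shares of all 16079 genes, 23.1% higher and 21.2% lower. The ATF4, synthetase, ribosomal and respiratory lists lie at the higher end, and the conduction and calcium, sodium and pacemaker channel lists at the lower end.

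Many genes of the p53 response rose. Of 30 tested p53 targets 20 rose, 14 at least 2-fold, and 3 fell, with a median log2 difference of 0.94. With the Y-linked covariate 16 rose and 1 fell. The median of the list was 1.10, 0.86, 1.09, 0.82 and 0.93 in the hyperoxic libraries relative to the room-air mean, and 0.07, 0.00, -0.02, -0.09 and 0.03 in room air. Atria 2 and 4 did not stand above the others here. Cdkn1a encodes the cell cycle inhibitor p21 and was at 274, 273, 283, 263 and 217 CPM in hyperoxia and 52.9, 45.1, 45.4, 47 and 48.9 CPM in room air (log2 2.45, SE 0.10, adjusted p = 9.4e-09). The lowest hyperoxic value, 217 CPM, stood against a highest room-air value of 52.9 CPM. Eda2r, a receptor gene on the X chromosome, was at 35.5, 20.6, 34.6, 22.9 and 32.8 CPM against 5.96, 5.48, 6.17, 3.94 and 5.43 CPM (log2 2.44, SE 0.18, adjusted p = 1.2e-06). Mdm2, the ligase that degrades p53, rose from 59.9 ± 3.83 to 120.1 ± 9.8 CPM and the nuclease gene Aen from 23.7 ± 1.28 to 89.4 ± 17.4 CPM. The repair gene Ddb2 fell (log2 -0.40; not past the threshold with the Y-linked covariate), and the death receptor gene Fas did not pass (log2 0.13, adjusted p = 0.46).

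Within the BCL2 family the members differed in direction. Of 18 tested genes 7 rose and 5 fell (7 and 0 with the Y-linked covariate). Pro-apoptotic Pmaip1 was at 6.45, 6.12, 8.44, 7.44 and 6.44 CPM in hyperoxia and 0.774, 0.972, 0.965, 0.766 and 1.12 CPM in room air (log2 2.92, SE 0.16, adjusted p = 1.7e-07). Bax, the pore-forming member, was at 70.4, 126, 72.5, 109.6 and 61.7 CPM against 31.2, 25.8, 25.3, 35.2 and 25.3 CPM (log2 1.62, SE 0.20, adjusted p = 4.9e-05), with the highest values in atria 2 and 4 and no overlap. The BH3-only gene Hrk had 1.81, 1.31, 1.43, 2.11 and 1.75 CPM in hyperoxia and at most 0.0827 CPM in room air. Protective Bcl2l1 rose from 39 ± 1.24 to 57.9 ± 5.16 CPM, while the BH3-only genes Bmf and Bcl2l11 fell, at log2 -0.90 and -0.67. Neither of these passed with the Y-linked covariate (log2 -0.94 and -0.51).

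Few cell division genes passed. Of 26 DNA replication genes 1 rose (Cdc6, log2 0.36, adjusted p = 0.042) and none fell. Of 26 mitosis genes none rose and 3 fell, the kinase genes Aurkb (log2 -0.31) and Plk1 (-0.32) and the kinetochore gene Cenpf (-0.41). Cdc6 missed the threshold when hyperoxic atrium 1, 3, 4 or 5 or room-air atrium 2, 4 or 5 was left out (log2 0.29 to 0.37, adjusted p 0.056 to 0.096). Aurkb missed the threshold when room-air atrium 1, 3 or 4 was left out (log2 -0.29 to -0.26, adjusted p 0.054 to 0.071). Plk1 missed the threshold when room-air atrium 1, 2 or 4 was left out (log2 -0.32 to -0.27, adjusted p 0.051 to 0.07). Cenpf missed the threshold when hyperoxic atrium 3 or 4 or room-air atrium 1, 2, 3 or 4 was left out (log2 -0.42 to -0.37, adjusted p 0.053 to 0.073). The proliferation marker gene Mki67 was at 202, 149.8, 199.6, 156 and 238 CPM in hyperoxia and 235, 229, 266, 238 and 197 CPM in room air (log2 -0.30, SE 0.13, adjusted p = 0.083). Cyclin D1, Ccnd1, rose from 36.1 ± 3.81 to 55.4 ± 2.17 CPM, and the inhibitor genes Cdkn2c and Cdkn1b fell (log2 -0.55 and -0.37). Ccnd1 and Cdkn1b did not pass with the Y-linked covariate (log2 0.61 and -0.33).

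Of 26 heat shock proteins and co-chaperones of the cytosol 19 rose and 1 fell (14 and 0 with the Y-linked covariate), with a median log2 difference of 0.47. Hspa1b, an inducible HSP70 gene, was at 18, 45.7, 39.9, 29.6 and 17.4 CPM in hyperoxia and 3.43, 2.72, 3.31, 3.58 and 3.34 CPM in room air (log2 3.20, SE 0.27, adjusted p = 3.3e-06). Its near-identical copy Hspa1a had log2 3.33, and how reads were divided between the copies is not known. The 5 hyperoxic values of Hspa1b spread from 17.4 to 45.7 CPM, all above room air. The small heat shock protein gene Hspb1 rose from 93.4 ± 7.48 to 329 ± 95.2 CPM, Hsp90aa1 from 124 ± 5.7 to 301 ± 42.3 CPM and the constitutive Hspa8 from 892 ± 93.8 to 1851 ± 435 CPM. The co-chaperone Bag3 did not pass (log2 0.00, adjusted p = 1), and Hspa2, the testis-enriched member, fell (log2 -0.62; not past the threshold with the Y-linked covariate). The heat shock element, searched on both strands of the same windows, was in 2 of 20 windows of the list (10%; Hsph1 and Chordc1), against 0.558% of tested genes.

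Antioxidant genes were split. Of 28 NRF2 targets 16 rose and none fell (median log2 0.52), with 10 under the Y-linked covariate. Srxn1, sulfiredoxin, was at 59.1, 54.4, 52.5, 53.5 and 42.7 CPM in hyperoxia and 18.8, 17.8, 16.3, 18.3 and 17.5 CPM in room air (log2 1.56, SE 0.10, adjusted p = 3.5e-07). Osgin1, an oxidative stress-induced growth inhibitor, was at 11, 12.9, 9.31, 6.22 and 7.19 CPM against 1.16, 1.5, 0.992, 1.26 and 1.18 CPM (log2 2.93, SE 0.21, adjusted p = 1.2e-06). Neither gene overlapped between the groups. Other targets did not pass: the quinone reductase Nqo1 was at 10.2, 12, 9.97, 10.7 and 10.3 CPM against 9.86, 8.87, 10.2, 11.8 and 8.26 CPM (log2 0.12, adjusted p = 0.43), and the glutathione synthesis gene Gclc did not pass (log2 0.33, adjusted p = 0.092). Nfe2l2, the gene of NRF2, and Keap1, that of its inhibitor, had log2 0.07 and -0.02 and did not pass.
The core of the antioxidant response element (TGACNNNGC, both strands) was in 10 of 23 windows of the list (43.5%), 7 of them of genes that rose, against 16.7% of tested genes. The share was not particular to this list. It was 6 of 13 among amino acid transporter genes (46.2%), of which 2 rose. In the endoplasmic reticulum list it was 26.3%, with none that rose. One NRF2 target with the core, thioredoxin reductase Txnrd1, rose from 72.1 ± 4.51 to 116 ± 16.1 CPM, though not past the threshold with the Y-linked covariate. The core is in capitals in 1 of its 3 promoters.
Txnrd1, chr10:82859046-82859205 (plus strand, GRCm38.p6), core 92 bases before the start: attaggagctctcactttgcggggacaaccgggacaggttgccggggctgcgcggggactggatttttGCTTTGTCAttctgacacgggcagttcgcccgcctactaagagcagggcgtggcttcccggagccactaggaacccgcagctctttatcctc
Of 19 superoxide, peroxide and metal defence genes 11 rose and 2 fell, 4 and 1 with the Y-linked covariate, 9 and 5 without atria 2 and 4, 8 and 7 with the length slope, and 2 and 3 with both covariates. The median of the list was 0.17, 1.01, 0.32, 1.02 and 0.20 in the hyperoxic libraries relative to the room-air mean, highest in atria 2 and 4. The extracellular superoxide dismutase gene Sod3 fell, at 26.8, 19.9, 21.6, 20.5 and 27.1 CPM in hyperoxia and 96.7, 102, 90.2, 92.1 and 122 CPM in room air (log2 -2.12, SE 0.12, adjusted p = 2.3e-07). All 5 hyperoxic values lay far below the 5 room-air values. Catalase, Cat, also fell (log2 -0.29), and the mitochondrial Sod2 rose from 212 ± 13.2 to 358 ± 103 CPM. The metallothionein genes Mt1 and Mt2 rose at log2 1.32 and 1.91. Cat and Sod2 did not pass with the Y-linked covariate (log2 -0.45 and 1.07).

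The natriuretic peptide genes rose, while most tested genes that process or sense the peptides fell. Of 11 tested genes of this system 2 rose and 8 fell (3 and 8 without hyperoxic atria 2 and 4, 2 and 1 with the Y-linked covariate). Nppb, B-type natriuretic peptide, was at 1130, 1418, 1774, 1886 and 1133 CPM in hyperoxia and 22.9, 18.9, 13.6, 12.3 and 16.7 CPM in room air (log2 6.45, SE 0.25, adjusted p = 9.4e-09). Nppa, the atrial natriuretic peptide, was at 17620, 30560, 20080, 29970 and 17330 CPM against 7858, 6480, 6846, 8281 and 6342 CPM (log2 1.69, SE 0.20, adjusted p = 3.6e-05). Neither gene overlapped, which naming by size required, and atria 2 and 4 were the highest for Nppa. Corin, the protease that activates the atrial peptide, fell from 139 ± 13.1 to 68.1 ± 8.03 CPM, the processing protease Furin from 145 ± 19.6 to 88.1 ± 19.3 CPM and the receptor gene Npr1 from 52.7 ± 4.5 to 39.4 ± 2.25 CPM. Furin and Npr1 did not pass with the Y-linked covariate.

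Of 21 Z-disc and stretch response genes 15 rose and 4 fell, with 5 and 0 under the Y-linked covariate. Ankrd1, a titin-binding repressor that responds to load, was at 3243, 4270, 4483, 4979 and 3894 CPM in hyperoxia and 1314, 1171, 1289, 1381 and 1239 CPM in room air (log2 1.71, SE 0.13, adjusted p = 1.5e-06). Its relative Ankrd2 was at 1.81, 1.5, 1.96, 1.75 and 0.906 CPM against 0.0298, 0.0498, 0.0827, 0.0821 and 0 CPM, also without overlap. Tcap, the titin cap, and Fhl2 fell (log2 -1.08 and -0.77), against the direction of most of the list, and did not pass with the Y-linked covariate. Among 24 sarcomere genes 9 rose and 1 fell, but 5 rose and 5 fell without hyperoxic atria 2 and 4. The skeletal actin Acta1, which fetal hearts express, was at 93, 63.6, 60.5, 86.1 and 60.4 CPM in hyperoxia and 19.4, 16.6, 19.3, 15.1 and 19.7 CPM in room air (log2 2.01, SE 0.15, adjusted p = 1e-06), and the groups did not overlap. The plakophilin of the intercalated disc, Pkp2, rose from 85.8 ± 4.36 to 235 ± 30.6 CPM, while 5 of the 15 tested genes of connexins and the intercalated disc fell (1 with the Y-linked covariate).

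Nmrk2 encodes a nicotinamide riboside kinase that makes NAD by a salvage route of muscle. It was at 656, 1381, 936, 1285 and 576 CPM in hyperoxia and 14.7, 3.24, 8.49, 6.38 and 3.22 CPM in room air (log2 7.07, SE 0.50, adjusted p = 9.5e-07). All 5 hyperoxic values lay far above the 5 room-air values, which themselves ranged from 3.22 to 14.7 CPM. Of 19 tested genes of NAD synthesis and use 7 rose and 1 fell, 3 and 1 with the Y-linked covariate (median log2 0.23). The main salvage enzyme Nampt (log2 0.24, adjusted p = 0.13) and Nmrk1 (log2 -0.12, adjusted p = 0.47) did not pass.

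Genes of atrial identity and electrical function were mostly lower. Of 23 atrial and pulmonary vein transcription factor genes 16 fell and 1 rose (10 and 0 with the Y-linked covariate), with a median log2 difference of -0.46. Tbx5, a T-box factor of atrial development, was at 85.8, 114, 97.1, 84.6 and 89.5 CPM in hyperoxia and 169.9, 188, 189, 198 and 237 CPM in room air (log2 -1.06, SE 0.11, adjusted p = 1.7e-05). The Notch-related repressor Hey1 fell from 29.7 ± 1.82 to 11 ± 1.2 CPM and Tbx20 from 584 ± 53.5 to 299 ± 50.4 CPM. The groups did not overlap for Tbx5, which did not pass with the Y-linked covariate. Gata4 (log2 0.02, adjusted p = 0.88) and Nkx2-5 (log2 -0.24, adjusted p = 0.39) did not pass.

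Of 20 atrial cardiomyocyte genes 12 fell and 4 rose (8 and 3 with the Y-linked covariate). Sbk3, a kinase gene of atrial muscle, was at 42.8, 72.1, 39.3, 77.1 and 62.6 CPM in hyperoxia and 544, 592, 645, 657 and 730.5 CPM in room air (log2 -3.43, SE 0.20, adjusted p = 2.4e-07). Its neighbour and relative Sbk2 was at 26.3, 47.3, 22.3, 39.9 and 39.8 CPM against 163, 218, 203, 214 and 225 CPM (log2 -2.54, SE 0.19, adjusted p = 1.4e-06). The atrial connexin gene Gja5 was at 62.7, 99.3, 65.6, 99.1 and 77.9 CPM against 237, 260.4, 239.5, 256 and 311 CPM (log2 -1.69, SE 0.15, adjusted p = 3.7e-06). All 3 genes were without overlap, and atria 2 and 4 were not the lowest. Bmp10, an atrial growth factor gene of the trabeculated heart, rose from 0.339 ± 0.185 to 4.93 ± 1.43 CPM. The atrial light chain genes gave no steady difference. Myl7 was at 8155 ± 3683 CPM against 7394 ± 892 CPM (log2 0.14, adjusted p = 0.69), but was lower without atria 2 and 4 (log2 -0.43). Myl4 rose (log2 0.68), but did not pass without atria 2 and 4 (log2 0.20). Myl4 missed the threshold when hyperoxic atrium 2 or 4 or room-air atrium 1, 2, 3 or 5 was left out (log2 0.50 to 0.67, adjusted p 0.061 to 0.072).

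Of 17 calcium, sodium and pacemaker channel genes 12 fell and 1 rose, 7 and 0 with the Y-linked covariate (median log2 -1.06). The sodium channel gene Scn10a was at 20.8, 22.4, 22.6, 17.6 and 25.8 CPM in hyperoxia and 67.9, 71.5, 69.2, 71.8 and 85.3 CPM in room air (log2 -1.74, SE 0.11, adjusted p = 4.8e-07). The groups did not overlap. The calcium channel genes Cacna1c and Cacna1g fell at log2 -0.92 and -1.36. Of 22 potassium channel genes 16 fell and 2 rose, 6 and 0 with the Y-linked covariate (median log2 -0.64). Kcnh2, which carries the rapid delayed rectifier current, was at 96.2, 93, 90.4, 70.8 and 91.6 CPM in hyperoxia and 186, 199.5, 203, 209.9 and 205 CPM in room air (log2 -1.18, SE 0.09, adjusted p = 1.7e-06). The inward rectifier gene Kcnj2 fell from 48.7 ± 6.09 to 22.1 ± 1.92 CPM, and Kcnj3 and Kcnj5, the subunits of the acetylcholine-gated channel, fell at log2 -0.86 and -0.70. The 2 that rose were Kcne1 and Kcnk1 (log2 1.60 and 0.41). Kcne1 did not pass without atria 2 and 4 (log2 1.15). Kcnk1 missed the threshold when hyperoxic atrium 1, 3 or 4 or room-air atrium 2, 3, 4 or 5 was left out (log2 0.34 to 0.41, adjusted p 0.067 to 0.096). Cacna1c and Cacna1g did not pass with the Y-linked covariate (log2 -1.20 and -1.74). Nor did they with both covariates, the length slope and the Y-linked to Xist ratio (log2 -0.06 and -0.11). With both, 4 of the 17 calcium, sodium and pacemaker channel genes fell, at a median of -0.20.

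In calcium cycling of the sarcoplasmic reticulum 8 of 19 genes fell and 2 rose (2 and 1 with the Y-linked covariate, 13 and 2 without hyperoxic atria 2 and 4). The calcium pump gene Atp2a2 was at 2479, 2803, 3242, 2791 and 3054 CPM in hyperoxia and 3942, 4286, 4667, 4676 and 5645 CPM in room air (log2 -0.69, SE 0.13, adjusted p = 0.0011). The release channel gene Ryr2 fell from 461 ± 71.5 to 261 ± 49.8 CPM. The pump's inhibitor phospholamban, Pln, did not pass (log2 -0.43, adjusted p = 0.055), and the calcium sensor S100a1 rose from 162 ± 16.7 to 346 ± 129 CPM. Of 17 genes of adrenergic and muscarinic signalling 14 fell and 2 rose (9 and 0 with the Y-linked covariate). Adrb1, the main β-adrenergic receptor of the heart, was at 12, 13.2, 12.2, 12.8 and 11.8 CPM in hyperoxia and 27.8, 27.2, 26, 25.8 and 32.1 CPM in room air (log2 -1.17, SE 0.09, adjusted p = 1.3e-06). The vagal receptor gene Chrm2 fell from 146 ± 14.7 to 69.1 ± 20.5 CPM and the phosphodiesterase gene Pde4b from 149 ± 15.9 to 53.4 ± 9.33 CPM. Atp2a2 did not pass with the Y-linked covariate (log2 -0.79).
Of 9 tested conduction and pacemaker markers 8 fell (2 with the Y-linked covariate), and Shox2 did not pass. They had a summed level of 91.8 to 109.5 CPM in hyperoxia and 170.2 to 182 CPM in room air. In such bulk tissue fewer cells of a type and less RNA per cell cannot be told apart. The markers' part in the results on channels was not tested.

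**Figure D3:**
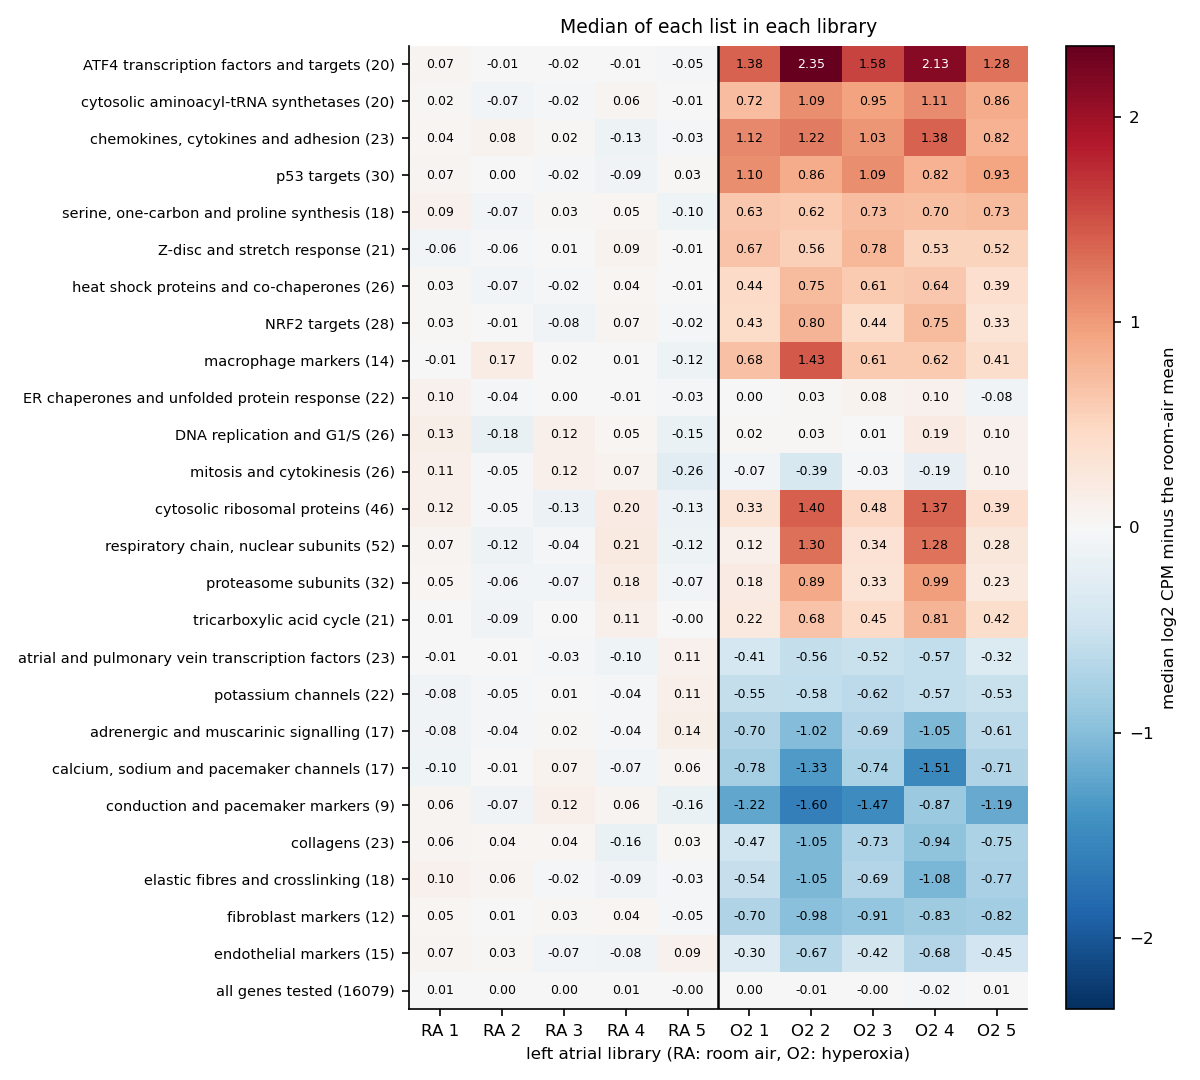
Median over list members of log2 CPM minus the room-air mean (colour) for 25 lists and all tested genes in each of the 10 left atria. The respiratory chain and ribosomal lists are high in hyperoxic atria 2 and 4 (1.28 to 1.40) and lower in the other 3 (0.12 to 0.48), while the p53 list is alike in all 5 (0.82 to 1.10).

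Elastic fibre and collagen genes fell. Of 18 tested genes of elastic fibres and their crosslinking 16 fell and none rose (6 with the Y-linked covariate), with a median log2 difference of -0.73. Eln, elastin, had the largest fall in CPM of all genes that passed without overlap, at 10600, 5459, 9366, 5143 and 8372 CPM in hyperoxia and 27480, 25540, 24420, 22720 and 18470 CPM in room air (log2 -1.61, SE 0.22, adjusted p = 0.00011). The hyperoxic values were lowest in atria 2 and 4, all 5 lay below room air, and the gene did not pass with the Y-linked covariate (log2 -1.92). Fbln5, which guides elastin onto fibres, fell from 439 ± 41.4 to 179 ± 39.5 CPM, Ltbp1, a binding protein of latent TGF-beta, from 253 ± 21.8 to 102 ± 13.5 CPM and the crosslinking enzyme gene Loxl1 from 606 ± 33.1 to 338 ± 33.1 CPM. Loxl2 (log2 0.38, adjusted p = 0.057) and Emilin1 (log2 -0.07, adjusted p = 0.72) did not pass.

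Of 23 collagen genes 13 fell and 1 rose (7 and 0 with the Y-linked covariate). The fibrillar collagen gene Col3a1 was at 4421, 3250, 3845, 3488 and 4044 CPM in hyperoxia and 6652, 6856, 6708, 6422 and 6805 CPM in room air (log2 -0.81, SE 0.12, adjusted p = 0.00017). Col1a1 was at 1623, 1011, 1364, 1126 and 1271 CPM against 2417, 2175, 2283, 2001 and 2825 CPM (log2 -0.87, SE 0.15, adjusted p = 0.00053). Both genes separated the groups. The microfibrillar chains Col6a1, Col6a2 and Col6a3 fell at log2 -1.17, -1.12 and -1.50. The basement membrane chains Col4a3 and Col4a4, a head-to-head gene pair, fell at log2 -1.97 and -1.40, whereas Col4a1 and Col4a2 were at log2 -0.10 and -0.05 and did not pass. With the length slope as a covariate both of these were higher (log2 0.30 and 0.29). Col8a1 rose from 36.5 ± 6.58 to 74 ± 30.3 CPM. With the Y-linked covariate Col1a1, Col6a2 and Col8a1 did not pass.
Cell type markers moved beside these genes. Of 12 fibroblast markers, 4 of which also stand in the collagen or elastic lists, 10 fell and 1 rose (Tcf21, log2 0.32), and 6 fell and none rose with the Y-linked covariate. They had a summed level of 9068 to 12180 CPM in hyperoxia and 16430 to 17460 CPM in room air. The proteoglycan Lum fell from 288 ± 13.4 to 119 ± 20.9 CPM, and periostin, Postn, did not pass (log2 -0.12, adjusted p = 0.47). The markers' part in the matrix results was not tested.

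Vascular genes fell in part. Of 25 genes of VEGF, angiopoietin and Notch signalling 16 fell and 1 rose (9 and 0 with the Y-linked covariate). The ligand gene Vegfa rose from 129.5 ± 13.3 to 215 ± 40.6 CPM, and its receptor gene Kdr fell from 91.9 ± 11.7 to 42.7 ± 12 CPM. The apelin receptor gene Aplnr and its ligand Apln fell at log2 -1.49 and -1.20, and Angpt2 at -1.06. Of 15 endothelial markers 12 fell and 1 rose (5 and 1 with the Y-linked covariate), at a summed 1433 to 1793 CPM in hyperoxia and 1810 to 2142 CPM in room air. Their part in the vascular results was not tested. The tight junction gene Cldn5 was at 7.69, 8.16, 8.25, 12.8 and 7.25 CPM in hyperoxia and 26, 26.3, 23.9, 26.1 and 27.7 CPM in room air (log2 -1.56, SE 0.14, adjusted p = 6e-06), and the sialomucin gene Emcn was higher, at 164, 210.1, 186, 209.6 and 170 CPM against 120.5, 108, 94.7, 107 and 105 CPM (log2 0.81, SE 0.10, adjusted p = 4.9e-05). Neither gene overlapped. Of 10 angiotensin, endothelin and bradykinin genes 5 fell and 1 rose (3 and 0 with the Y-linked covariate). The converting enzyme Ace and the receptor Ednra fell (log2 -1.57 and -1.18), while endothelin 1, Edn1, rose from 29.8 ± 7.06 to 67.2 ± 13.1 CPM. Vegfa, Ace and Edn1 did not pass with the Y-linked covariate (log2 0.68, -2.12 and 0.83). Apln and Aplnr did not pass with both covariates, the length slope and the Y-linked to Xist ratio.

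Inflammatory genes rose from low levels. Of 23 chemokine, cytokine and adhesion genes 17 rose and 1 fell (11 and 1 with the Y-linked covariate), with a median log2 difference of 1.06. Lif, a cytokine of the interleukin-6 family, was at 11.7, 8.96, 13.3, 8.98 and 11.4 CPM in hyperoxia and 1.28, 1.27, 1.19, 1.04 and 1.64 CPM in room air (log2 3.08, SE 0.17, adjusted p = 1.5e-07). Ccl2, the monocyte chemokine, was at 12.9, 30.6, 15.8, 16 and 10.5 CPM against 5.06, 3.46, 2.81, 3.09 and 2.09 CPM (log2 2.38, SE 0.30, adjusted p = 6.5e-05). Atrium 2 was the highest for Ccl2, and the groups did not overlap. The adhesion genes Selp and Icam1 rose at log2 2.47 and 1.06, and Cxcl12, a homing chemokine, fell from 32.8 ± 3.35 to 16 ± 1.4 CPM. Of 21 interferon-stimulated genes 7 rose (33.3%, against 23.1% of all tested genes) and none fell, led by Ifit3 at log2 1.87. The library medians of this list, relative to the room-air mean, overlapped between the groups. They were 0.02 to 0.70 in hyperoxia and -0.15 to 0.27 in room air.
Macrophage markers rose beside the inflammatory genes: 9 of 14 rose and none fell, at a summed 310.3 to 511 CPM in hyperoxia and 237 to 257 CPM in room air. Their part in the inflammatory results was not tested. Ccr2, the receptor of monocytes for Ccl2, was at 7.61, 9.4, 10.9, 3.68 and 2.31 CPM against 1.22, 1.32, 0.965, 0.766 and 0.82 CPM (log2 2.73, SE 0.39, adjusted p = 0.00016), while the resident macrophage marker Lyve1 did not pass (log2 -0.22, adjusted p = 0.32). Spp1, osteopontin, was at 27, 20.4, 9.81, 13.2 and 5.47 CPM in hyperoxia and 0.715, 0.947, 0.992, 0.438 and 0.425 CPM in room air (log2 4.41, SE 0.44, adjusted p = 1.1e-05). Gpnmb, another gene of lipid-laden macrophages, was at 27.7, 22.2, 18.5, 13.7 and 14.5 CPM against 0.774, 2.27, 0.937, 1.18 and 0.941 CPM (log2 3.97, SE 0.30, adjusted p = 1.3e-06). The galectin gene Lgals3 rose from 10.5 ± 2.06 to 92.2 ± 25.4 CPM. All 3 of these genes were free of overlap. They belong to a list of 10 lipid-associated macrophage markers, of which 7 rose and 1 fell. The counts were 6 and 0 with the Y-linked covariate, and 7 and 2 without hyperoxic atria 2 and 4.

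Ribosomal, respiratory and proteasome genes were higher, most of all in the 2 libraries tilted towards short transcripts. Of 46 cytosolic ribosomal protein genes 44 rose (median log2 0.87), and without hyperoxic atria 2 and 4 the count was 40 and the median 0.39. With both covariates 8 rose. Of 52 nuclear respiratory chain genes 44 rose (median log2 0.74), 27 without those 2 libraries (median 0.23) and 3 with both covariates. Of 32 proteasome genes 29 rose, 21 without those 2 libraries and 2 with both covariates. Among 7 tested mitochondrially encoded mRNAs only mt-Nd1 rose (log2 0.41). mt-Nd1 missed the threshold when hyperoxic atrium 4 or 5 or room-air atrium 1, 2, 3 or 4 was left out (log2 0.33 to 0.43, adjusted p 0.054 to 0.089).

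Metabolic genes moved in both directions, with counts to be read beside 23.1% higher and 21.2% lower over all tested genes. In fatty acid uptake and oxidation 14 of 30 genes rose and 3 fell (3 and 1 with the Y-linked covariate). Of 17 lipogenic genes 9 fell and 4 rose (1 and 1 with the Y-linked covariate), with small differences such as Acacb at log2 -0.49 and Scd2 at -0.38. Of 22 hypoxia-inducible factor genes and targets 9 fell and 5 rose (4 and 3 with the Y-linked covariate): the prolyl hydroxylase Egln3 fell from 27.1 ± 3.78 to 11.6 ± 1.25 CPM and Ankrd37 at log2 -2.65, while Hif1a (log2 0.76) and the glucose carrier Slc2a1 (log2 0.76) rose. Of 18 clock genes 4 rose and 8 fell, 3 and 3 with the Y-linked covariate. Per1 was at 27.4, 16.9, 26.9, 13.4 and 28.5 CPM in hyperoxia and 53.5, 111, 121, 121 and 162 CPM in room air (log2 -2.33, SE 0.28, adjusted p = 5e-05), with room-air atrium 1 the lowest of its group and still above all hyperoxic values. Acacb, Scd2 and Hif1a did not pass with the Y-linked covariate, nor did Per1 with both covariates.

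Other genes were named for the size of their difference alone. Cldn23, an epithelial claudin, was at 6.29, 7.65, 8.52, 7.08 and 6.03 CPM in hyperoxia and under 0.15 CPM in room air (log2 6.10, SE 0.24, adjusted p = 9.4e-09). Clca3a2, a chloride channel accessory gene, was at 13, 6.82, 9.86, 5.04 and 11.3 CPM in hyperoxia and 104, 129.7, 110.2, 97.6 and 130 CPM in room air (log2 -3.63, SE 0.23, adjusted p = 4.8e-07). Pi15, a peptidase inhibitor, fell from 93.2 ± 12.9 to 15.5 ± 3.5 CPM, Ky, a muscle peptidase of the Z-disc, from 5.64 ± 0.767 to 0.649 ± 0.269 CPM and Col22a1, a collagen of muscle junctions, from 8.09 ± 2.02 to 1.06 ± 0.592 CPM. Lower levels were also found for the neurotensin receptor Ntsr1 (log2 -3.26), the claudin Cldn11 (-2.57), the carboxylesterase Ces1d (-2.53) and the oestrogen-binding receptor Gper1 (-2.47). Among genes with large CPM differences the imprinted noncoding RNA H19, which shares exonic bases with other genes, rose from 2343 ± 315 to 4287 ± 341 CPM. The ADP/ATP carrier gene Slc25a4 (log2 0.89), the ATP synthase gene Atp5b (0.46) and the mitochondrial ribosomal RNA mt-Rnr2 (0.88) were also higher. Col1a2 (log2 -0.79), the peptide-amidating enzyme Pam (-0.51) and the secreted proteins Fstl1 (-0.64) and Sparc (-0.31) were lower. With the Y-linked covariate Ces1d, Col22a1, Slc25a4, Atp5b, mt-Rnr2 and Sparc did not pass (log2 -1.78, -2.71, 1.34, 0.51, 0.83 and -0.13). Slc25a4 was at log2 0.44 without atria 2 and 4 and 0.33 with both covariates, and Atp5b at 0.30 and 0.07. Sparc missed the threshold when hyperoxic atrium 3 or 5 or room-air atrium 1, 2, 3 or 4 was left out (log2 -0.32 to -0.28, adjusted p 0.055 to 0.071).

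Fewer genes passed in the left ventricle of pups under the same gases. In a fit of all 20 libraries 1813 of 16598 genes passed there (10.9%), against 7291 for the atrial difference in the same fit. The response differed between the chambers for 6060 genes (36.5%), 2824 with a more positive (17%) and 3236 with a more negative difference in the atrium (19.5%). Of 16011 genes tested in both this fit and the atrial fit, 641 passed in both chambers in the same direction. Nppb had a log2 difference of 0.18 in the ventricle (adjusted p = 0.64) and an atrial minus ventricular difference of 6.20 (SE 0.37, adjusted p = 9.8e-10). Nmrk2 was likewise at -0.13 in the ventricle (adjusted p = 0.9), with a difference between chambers of 7.13 (SE 0.88, adjusted p = 1.7e-05). Nppa fell in the ventricle, at log2 -1.39 (adjusted p = 0.015), against its rise in the atrium. Cdkn1a had log2 -0.05 in the ventricle (adjusted p = 0.8; difference 2.44, SE 0.15, adjusted p = 1.7e-09).

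Some atrial changes were shared. Chac1, Fgf21 and Asns also rose in the ventricle, at log2 2.88, 3.40 and 1.08. For Fgf21 the difference between chambers did not pass (1.74, SE 1.07, adjusted p = 0.21), and for Asns it did (3.87, SE 0.32, adjusted p = 5e-08). Spp1 and Gpnmb rose there at log2 5.03 and 4.20, with differences between chambers of -0.68 (adjusted p = 0.47) and -0.30 (adjusted p = 0.69). Eln fell in the ventricle too (log2 -1.19; difference -0.48, SE 0.28, adjusted p = 0.19). Atp2a2 rose there at 0.60 (difference -1.36, SE 0.17, adjusted p = 5.1e-06). By list, the difference between chambers passed in 14 of 20 ATF4 genes and 18 of 20 cytosolic synthetase genes as larger in the atrium and in 16 of 22 potassium channel genes as more negative in the atrium. The comparison carries the same library features, and 2 of 5 hyperoxic ventricles had more Y-linked than Xist reads.

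**Figure D4:**
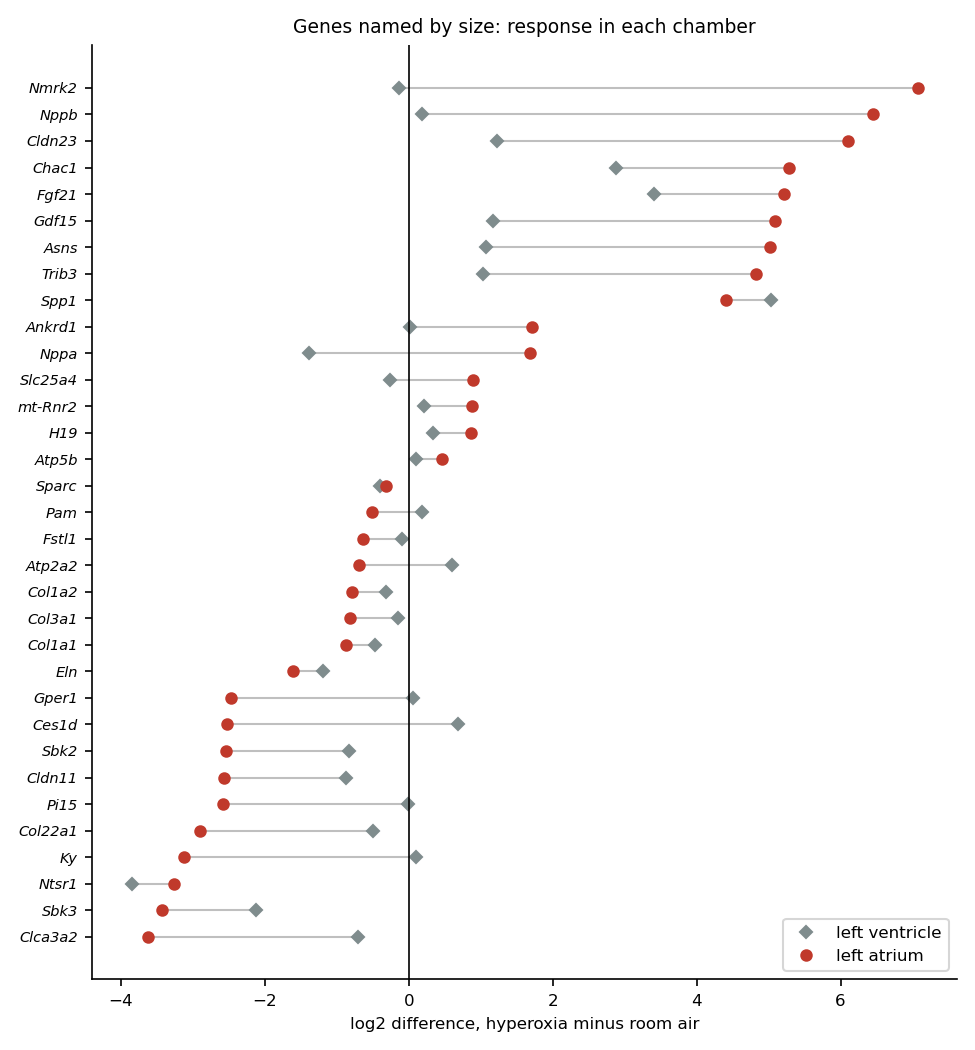
Log2 difference, hyperoxia minus room air, of 33 genes named for size in the left atrium (circles) and left ventricle (diamonds). The genes were chosen for the size of the atrial difference. Nppb lies at 6.45 and 0.18, and Spp1 at 4.41 and 5.03.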

How the data were processed

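RNA was sequenced from the left atria of 5 hyperoxic and 5 room-air pups. The deposited values are raw read counts per gene, which the authors made with fastp 0.20.1, STAR 2.7.6a, featureCounts of Subread 2.0.1 and Salmon 1.3.0 on GRCm38.p6, per the submitters' processing notes. Which annotation release was counted, and whether by strand, is not given in the sources used here, and 59 of the 206 named genes share exonic bases with another gene. The labels name 2 different RNA extraction kits, so which one was used is not known.

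The 10 atrial libraries were fitted with edgeR 4.0.16 in R 4.3.3 (TMM scaling, filterByExpr, robust quasi-likelihood F-test, Benjamini-Hochberg over 16079 genes), and the chamber difference was an interaction term over all 20 libraries. On simulated counts of 15885 genes the test recovered 41.8%, 83.6% and 93.9% of genes changed 1.5-fold, 2-fold and 4-fold, and 8.2% of its calls were false. The simulation changed only 67, 67 and 66 genes by these folds, and held no length tilt or sex imbalance. Its rates therefore do not carry over to the atria, where 44.3% of genes passed. The length slope is the slope of a library's log2 CPM, relative to the mean library, on log2 transcript length. Alternatives were RLE and upper-quartile scaling, other filters, DESeq2 1.42.0, limma 3.58.1 (voom), all libraries, a replicate block, the covariates, and fits without libraries.

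Genes were named as the 10 higher and 10 lower with the largest log2 difference (at least 5 CPM, no overlap, over 3 counts) and the 8 higher and 8 lower with the largest CPM difference (no overlap). Also named were those with 3 or fewer counts in 1 group, and up to 4 members of each list by p plus members needed for its roles. Gene models, Xist and Y-linked genes were not named by size, and a few genes that the rule names are not reported here. The members and lists were chosen with earlier results of these data known.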

Additional observations from a re-analysis of the deposited data

Results flagged for a closer look

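Myl2, the ventricular light chain gene, was at 344.7 CPM in room-air atrium 1, while the next highest room-air atrium had 15.82 CPM. The gap was 0.976 of the range of the group, over the limit of Dixon's test for 5 samples (0.71). Of 74 groups of 5 values looked at this was the 1 past the limit, and chance passes about 1 in 20. Without room-air atrium 1, 6281 genes passed in place of 7123, and 5647 in place of 6060 differed between the chambers. Leaving out any other room-air atrium gave 5927 to 6541 and 5254 to 5986, so these falls were not particular to atrium 1.

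For 24 of 33 genes named for size the response to hyperoxia differed between atrium and ventricle (edgeR quasi-likelihood interaction test, adjusted over all genes), against 36.5% of all 16598 genes. The genes were chosen for the size of their atrial difference, which favours such a difference. The log2 response was larger in the atrium, as atrial minus ventricular difference, for Nmrk2 (7.13), Nppb (6.20), Cldn23 (4.81), Asns (3.87), Gdf15 (3.86), Trib3 (3.73), Nppa (3.01), Chac1 (2.34), Ankrd1 (1.62), Slc25a4 (1.08) and H19 (0.47). The adjusted p of these 11 ran from 9.78e-10 for Nppb to 0.0163 for H19. The atrial difference was the more negative one for Ky (-3.28), Ces1d (-3.28), Clca3a2 (-2.98), Pi15 (-2.64), Gper1 (-2.59), Col22a1 (-2.46), Sbk2 (-1.78), Cldn11 (-1.77), Atp2a2 (-1.36), Pam (-0.76), Col3a1 (-0.72), Fstl1 (-0.60) and Col1a2 (-0.54). Their adjusted p ran from 2.88e-08 for Pi15 to 0.0256 for Col1a2.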

How the results depend on the processing

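With the Y-linked covariate 2624 genes passed, 1529 higher and 1095 lower, and 353 list members did. With both covariates 3326 passed, 1860 higher and 1466 lower, and 398 list members did. With only the libraries that had more Y-linked than Xist reads, 5 room-air atria and hyperoxic atrium 2, 3882 genes passed with at least a 2-fold difference; the lone hyperoxic library is there assumed to vary like the others. Leaving out single libraries gave 5927 to 7363 passing genes, 3060 to 3892 higher, 2867 to 3479 lower, 1661 to 2125 at least 2-fold, 688 to 800 list members and 5146 to 6645 genes that differed between chambers. Counts over all genes under scaling, filters, DESeq2, voom, all libraries and the length slope stayed within 1.5 times those reported. Single lists moved more: with the length slope 20 in place of 44 nuclear respiratory chain genes, 16 in place of 29 proteasome genes and 13 in place of 8 amino acid transporter genes were higher, and with all 20 libraries 8 in place of 3 mitosis genes were lower. The replicate numbers do not pair hyperoxic with room-air atria (correlations of same-numbered deviations -0.104, -0.154, 0.219, 0.346 and 0.06), and 7028 genes passed with a replicate block. Whether same-numbered atria and ventricles came from 1 pup is not given in the sources used here. The chamber comparison treats them as separate, and 6890 genes differed there with a replicate block.

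Some log2 differences changed sign: Cdc6 (-0.07 with the Y-linked covariate), Kcnk1 (-0.03), Plk1 (0.16), Syvn1 (0.08), mt-Nd1 (-0.12) and Col4a2 (0.70) with both covariates, Col4a1 (0.30), Col4a2 (0.29) and Myl7 (-0.55) with the length slope alone, Myl7 (-0.43) without hyperoxic atria 2 and 4, and Bag3 (0.38) with the Y-rich libraries only. The cause was not tested. Of 178 named genes that passed, 122 were lost in none of the 23 alternatives, although Ankrd2, Atp6v0d2 and Fosl1 each had no value in 1, 47 were lost with the Y-linked covariate and 5 without hyperoxic atria 2 and 4. Depth limits what 3 counts can show, as for Vmn2r3 in room air.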

Other observations

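Further gene groups held genes of both directions, with counts to be read beside 23.1% higher and 21.2% lower over all tested genes. Those given with the Y-linked covariate are to be read beside 1529 higher and 1095 lower of all 16079 genes. Of 19 immediate early genes, which cells switch on within minutes of a stimulus, 8 rose and 6 fell (4 and 6 with the Y-linked covariate). Fosl1, a partner of JUN, rose from 0.17 ± 0.0932 to 1.33 ± 0.642 CPM (log2 2.96, SE 0.48, adjusted p = 0.00042) and Myc from 14.4 ± 1.85 to 32.8 ± 2.99 CPM, while Jun fell from 83.3 ± 11 to 44.3 ± 4.31 CPM and the nuclear receptor gene Nr4a2 at log2 -1.58. Of 13 glucocorticoid-responsive genes 5 rose and 5 fell (3 and 4 with that covariate), with the phosphatase gene Dusp1 at log2 -1.24, Klf9 at -0.98 and the chaperone gene Fkbp5 at 0.62. Of 18 cardiac splicing regulators 6 fell and 4 rose (2 and 0 with the Y-linked covariate). Rbfox1, a splicing factor of muscle and brain, fell from 34 ± 4.36 to 6.92 ± 2.04 CPM (log2 -2.29, SE 0.18, adjusted p = 1.8e-06), and the groups did not overlap. Of 24 lysosome and autophagy genes 9 rose and 4 fell, at a median log2 of 0.23, and -0.01 without hyperoxic atria 2 and 4. Sqstm1, the autophagy receptor p62, rose from 249 ± 15.3 to 499 ± 44.1 CPM, the cathepsin gene Ctsl from 479 ± 34.8 to 953 ± 186 CPM and Atp6v0d2, a proton pump subunit of macrophages and osteoclasts, from 0.061 ± 0.0389 to 0.765 ± 0.26 CPM.

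Marker genes of further cell types also differed. Of 11 epicardial markers 7 rose and 1 fell (3 and 1 with the Y-linked covariate), at a summed 709 to 782 CPM in hyperoxia and 447 to 646 CPM in room air. The keratin genes Krt18 and Krt19 rose at log2 1.17 and 1.16, and Tbx18, the transcription factor of the epicardium, fell at -0.46. Of 12 smooth muscle and pericyte markers 7 fell and 3 rose (2 and 3 with the Y-linked covariate). The smooth muscle myosin gene Myh11 fell from 6.08 ± 1.89 to 1.71 ± 0.502 CPM and the pericyte gene Rgs5 from 409.6 ± 43.1 to 111 ± 20.8 CPM, while Acta2 and Tagln, which young and injured myocytes also express, rose at log2 0.76 and 1.12. With both covariates, the length slope and the Y-linked to Xist ratio, Krt18, Krt19, Tbx18, Acta2 and Tagln did not pass. Of 7 tested neuron, ganglion and Schwann markers 4 fell and none rose (none of either with the Y-linked covariate), at a summed 36 to 54.1 CPM against 56.9 to 60.8 CPM. Of 11 erythroid and platelet markers 1 rose and none fell, and their sums overlapped, at 1930 to 6251 CPM in hyperoxia and 1153 to 6370 CPM in room air.

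One gene was almost without reads in a group. Vmn2r3, a member of the vomeronasal receptor family, had 11.2, 13.6, 12, 15.7 and 10.5 CPM in hyperoxia and 0.0894, 0, 0, 0 and 0 CPM in room air. In counts these are 2070 reads over the 5 hyperoxic libraries against 3 in room air, all in 1 library. The ratio scaled for library size is 745, with a 95% exact counting interval of 255 to 3610 that covers counting error only.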
